A study of Mus musculus with 12 samples.

Results

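Liver RNA was examined here for 10 genes of acute phase proteins, Saa1, Saa2, Saa4, Orm1, Orm2, Hp, Hpx, Apcs, Lcn2 and Alb, which were chosen by name for their known role, with earlier results of these data known. All 10 were found among the 24062 genes of the count tables. The libraries come from livers of 12 female C57BL/6J mice, 6 fed a control diet and 6 fed a diet with BIBB-515 at 55 mg/kg. BIBB-515 inhibits lanosterol synthase, a late enzyme of cholesterol synthesis. The mice arrived at 6 weeks of age, had 2 weeks to acclimate and ate the control diet for 3 days before the groups were split, and the experimental diets were then given for 10 days. The study kept 11 mice per group, and 6 of each were sequenced for these tables, with replicate numbers 1 to 6 in the control group and 6 to 11 in the BIBB-515 group. Neither group is labeled with an infection, an injury or a genetic change. The total count on genes ranged from 22764819 to 27914647 in control mice and from 24223939 to 31058370 in BIBB-515 mice. Levels are in CPM, the count of a gene relative to the total of its library, with library totals adjusted by the TMM method of edgeR. The p-values measure the spread between these 12 mice alone.

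The acute phase response is the change in the plasma proteins that hepatocytes secrete when infection or injury raises interleukin 6, interleukin 1 and tumor necrosis factor. These cytokines act on liver genes through STAT3, NF-kB and the C/EBP factors, with glucocorticoids as a cofactor. Serum amyloid A, orosomucoid, haptoglobin, hemopexin, serum amyloid P and lipocalin 2 are classed as positive acute phase proteins of the mouse because they rise, and albumin as a negative one because it falls.

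In these livers the 10 genes did not move as 1 group. Orm2 and Lcn2 were more than 2-fold higher with BIBB-515, and Apcs and Alb were lower, by 39.9% and 24.3%. Saa1 and Saa2 were 1.48-fold and 1.76-fold higher on average with mice of both groups intermixed, and neither passed the threshold. Hp, Saa4 and Orm1 had fold changes of 0.988, 0.970 and 1.10. Of the 10 genes, 4 passed an FDR of 0.05 (edgeR's quasi-likelihood test, Benjamini-Hochberg adjustment over all 12481 tested genes), 2 higher and 2 lower, while 13.7% of all tested genes passed, 7.18% higher and 6.48% lower. The values of the 2 groups did not overlap for 3 of the 10 genes, Orm2, Apcs and Alb, against 7.07% of all tested genes. The median log2 fold change was 0.058 over the 10 genes, with 5 above and 5 below 0, and -0.014 over all tested genes.

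**Figure D1:**
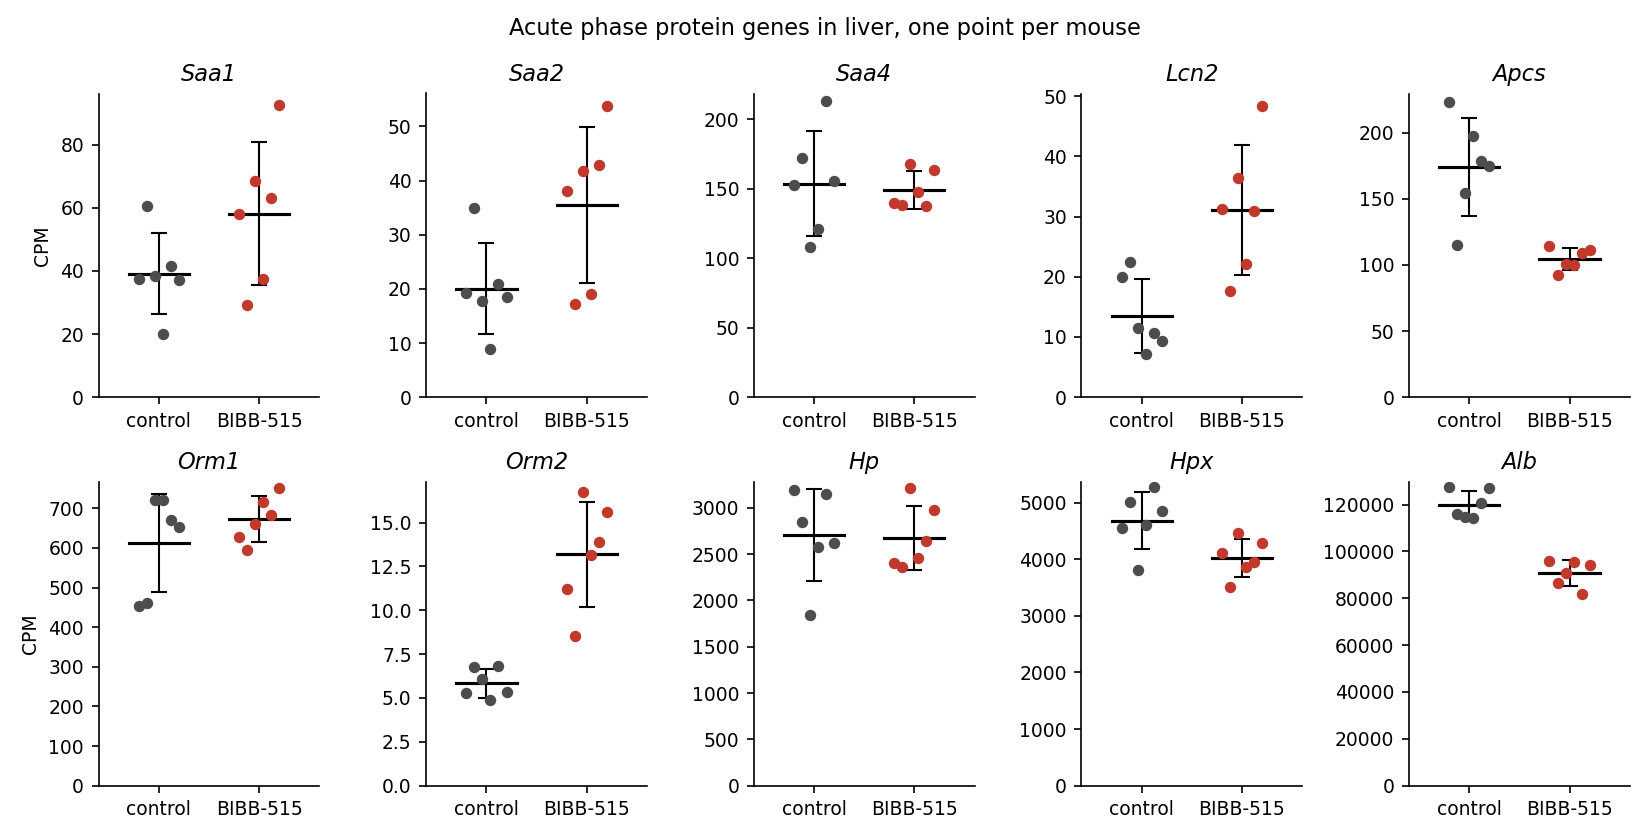
CPM (y axis, linear, from 0) of each of the 10 genes in the 6 control mice (gray points) and the 6 BIBB-515 mice (red points). Horizontal lines are means and bars are SD. The groups are separate for Orm2, Apcs and Alb and intermixed for Saa4, Orm1 and Hp.

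Of the control libraries, those of mice 3 and 4 stood apart in different ways. Over all genes, control mouse 3 differed from control mice 1, 2, 5 and 6 with a chi-square of 82.9 to 148 per degree of freedom and from mouse 4 with one of 63.9, while pairs of the other 5 control mice lay between 16.0 and 63.9. It had the lowest control values of Saa4, Hp and Hpx. Control mouse 4 differed along the transcripts, which were looked at after the levels were seen. The first 5 of the 15 exons of Alb held 14.0% of the Alb exon counts in control mouse 4, against 20.9% to 25.3% in the other 5 control mice and 20.8% to 25.3% in the BIBB-515 mice. Its share for the first 3 of the 10 exons of Hpx was also the lowest, at 10.7%, against 12.5% to 15.1% in the other control mice and 13.6% to 16.3% in the BIBB-515 mice. Fewer reads at the 5′ end are a common sign of fragmented RNA, and the integrity of this RNA was not tested here. The first exons of Hp and Orm1 did not set this mouse apart by much, with 7.54% of the Hp counts in the first 2 exons against 6.89% to 8.34% in the other controls, and 29.4% of the Orm1 counts against 29.4% to 32.2%. Control mouse 4 also had the lowest control values of Saa1, Saa2, Orm2, Lcn2 and Alb. The fits without it are given beside those genes, and those without control mouse 3 beside Saa4, Hp and Hpx. Of the 10 genes, 5 passed without control mouse 3, Hpx being the further one, and 4 without control mouse 4.

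Serum amyloid A1 and A2, encoded by Saa1 and Saa2, are apolipoproteins of the acute phase carried on high density lipoprotein. Saa1 (chr7:46740499-46742980, mm10, minus strand, 4 exons) ranged in the control mice from 20.0 to 60.5 CPM with a median of 37.8. With BIBB-515 it ranged from 29.3 to 92.6 CPM with a median of 60.6. BIBB-515 mice 8, 10 and 11 were above every control mouse, while mice 6, 7 and 9 lay within the control range. The log2 fold change was 0.57 (SE 0.26, FDR 0.164), with a 95% confidence interval from 0.0048 to 1.13. An exact permutation test, two-sided and over 924 labelings, gave p = 0.121. Without control mouse 4 the log2 fold change was 0.45 (FDR 0.258).

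Saa2 (chr7:46751833-46754314, plus strand, 4 exons) lies beside Saa1 on the opposite strand. It ranged from 8.88 to 35.0 CPM with a median of 18.9 in the control mice, and from 17.2 to 53.8 CPM with a median of 39.9 with BIBB-515. Here mice 7 and 9 lay within the control range, and the other 4 BIBB-515 mice were above all of them. The log2 fold change was 0.82 (SE 0.31, 95% confidence interval 0.17 to 1.47, FDR 0.0874). It passed the threshold without control mouse 2, the highest control (log2 fold change 1.06, FDR 0.0279), and without BIBB-515 mouse 7, the lowest of its group (FDR 0.0464), and was 0.68 (FDR 0.137) without control mouse 4. Saa1 and Saa2 share sequence, since 14.8% of the 50-base words of the Saa1 transcript and 9.12% of those of Saa2 occur in transcripts of other genes, and reads that align to several places were not counted. Summed to 1 row, the pair had a log2 fold change of 0.66 (SE 0.28, FDR 0.127).

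There were 2.01 ± 0.182 Saa1 counts for each Saa2 count in the control mice (SD, n = 6) and 1.67 ± 0.175 with BIBB-515 (SD, n = 6). These ratios were looked at after the values of the genes were seen, so no test is given. They ranged from 1.73 to 2.25 in the control mice and from 1.47 to 1.97 with BIBB-515, so the groups overlapped.

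Saa4 (chr7:46727999-46732543, minus strand, 4 exons) encodes the constitutive serum amyloid A, which is made without inflammation. It ranged from 108 to 213 CPM in the control mice (median 154) and from 138 to 168 CPM with BIBB-515 (median 144). All 6 BIBB-515 values fell inside the control range. The log2 fold change was -0.044 (SE 0.13, 95% confidence interval -0.33 to 0.24, FDR 0.864), and -0.12 (FDR 0.539) without control mouse 3. Saa3, a further member of the cluster that macrophages and fat also express, was at 3.59 ± 0.879 CPM in the control mice (SD, n = 6) and 2.98 ± 0.708 with BIBB-515 (SD, n = 6), a log2 fold change of -0.28 (FDR 0.349). Among the counts of these 4 Saa genes, Saa4 took 71.2% ± 6.21 in the control mice (SD, n = 6) and 61.9% ± 8.80 with BIBB-515 (SD, n = 6), and Saa1 took 18.0% ± 3.95 and 22.9% ± 5.11.

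Lipocalin 2, encoded by Lcn2 (chr2:32384637-32387739, minus strand, 6 exons), binds bacterial siderophores and so withholds iron from bacteria. It ranged from 7.15 to 22.4 CPM with a median of 11.0 in the control mice, and from 17.6 to 48.4 CPM with a median of 31.0 with BIBB-515. All 6 BIBB-515 mice were above the control mean, and 4 were above every control mouse. Mice 7 and 9, at 17.6 and 22.1 CPM, overlapped with control mice 1 and 2, at 20.0 and 22.4 CPM. Lcn2 rose by a log2 fold change of 1.20 (SE 0.28, 95% confidence interval 0.59 to 1.80, FDR 0.0127), and the exact permutation test gave p = 0.0108. Its 6 exons had ratios of the group means between 2.28 and 2.35. The rise was 1.08 on the log2 scale (FDR 0.0236) without control mouse 4.

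Neutrophils also store lipocalin 2, so their markers are given beside it. None of the 10 neutrophil markers in the tables reached the expression filter. Their summed level was between 1.00 and 1.35 CPM in the control mice and between 0.899 and 2.10 CPM with BIBB-515, and the most abundant, S100a9, averaged 0.450 and 0.543 CPM. BIBB-515 mice 8 and 11, which had the highest Lcn2 of all 12 mice, had the highest neutrophil sums, 2.10 and 1.80 CPM. BIBB-515 mouse 7 had the lowest Lcn2 of its group, 17.6 CPM, and the lowest neutrophil sum of all 12 mice, while 4 control mice had less Lcn2 than it. Control mice 5 and 6 had neutrophil sums of 1.35 and 1.33 CPM, with Lcn2 at 10.6 and 9.36 CPM. BIBB-515 mice 6, 9 and 10 had lower sums, 1.17, 1.21 and 1.29 CPM, and more Lcn2, 31.2, 22.1 and 30.9 CPM. The sums rest on few reads, with 8 to 24 counts of S100a9 per mouse. The part of these cells in the Lcn2 values was not tested. In whole liver RNA, more RNA per cell and more cells of a type cannot be told apart.

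Serum amyloid P component, encoded by Apcs, is a pentraxin of the plasma and a main acute phase reactant of the mouse. Apcs (chr1:172893961-172895054, minus strand, 2 exons) ranged from 115 to 223 CPM with a median of 177 in the control mice, and from 92.1 to 114 CPM with a median of 105 with BIBB-515. Every BIBB-515 mouse was below every control mouse, although control mouse 2, at 115 CPM, was close to BIBB-515 mouse 6, at 114 CPM. Apcs fell by 0.74 on the log2 scale (SE 0.12, FDR 0.00151), and the exact permutation test gave p = 0.00216, the smallest that 6 mice against 6 allow. The coefficient of variation was 21.2% in the control mice and 7.93% with BIBB-515. It was also lower with BIBB-515 in Saa4 (24.5% and 9.01%) and Orm1 (20.2% and 8.55%), and less so in Hp, Hpx, Lcn2 and Saa2. It was higher in Saa1, Orm2 and Alb. The 2 exons of Apcs had ratios of 0.608 and 0.603. The 250 bases upstream of its RefSeq start (GRCm38.p6, chr1:172895055-172895304, minus strand) are shown with a match to the letters of a STAT site, TTCNNNGAA, in capitals, at position -244 from the start.
Apcs: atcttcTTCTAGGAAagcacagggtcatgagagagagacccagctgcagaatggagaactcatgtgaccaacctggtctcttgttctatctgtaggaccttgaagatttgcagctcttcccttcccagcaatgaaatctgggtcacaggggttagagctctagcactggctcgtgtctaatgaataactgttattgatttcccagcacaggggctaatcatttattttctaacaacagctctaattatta

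Orosomucoid, or alpha-1-acid glycoprotein, binds drugs and small lipophilic molecules in plasma, and the mouse has 3 genes for it in a cluster on chromosome 4. Orm1 (chr4:63344566-63348162, plus strand, 6 exons) held nearly all of its RNA. It ranged from 453 to 721 CPM with a median of 661 in the control mice, and from 596 to 752 CPM with a median of 672 with BIBB-515. Control mice 1 and 2 were well below the other 4, and the BIBB-515 mice overlapped with those 4. The log2 fold change was 0.13 (SE 0.12, 95% confidence interval -0.13 to 0.40, FDR 0.503).

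Orm2 (chr4:63362449-63365877, plus strand, 6 exons) was low in control livers, at 4.86 to 6.81 CPM with a median of 5.70, which is 121 to 187 counts per mouse. With BIBB-515 it ranged from 8.56 to 16.7 CPM with a median of 13.5. All 6 BIBB-515 mice were above every control mouse, with mouse 7 nearest to them. Orm2 rose by a log2 fold change of 1.17 (SE 0.15, 95% confidence interval 0.85 to 1.49, FDR 0.000162), and by 1.13 (FDR 0.000589) without control mouse 4. The ratios of group means in its 6 exons lay between 2.12 and 2.63, and in 5 of the 6 exons the groups did not overlap.

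Orm3 (chr4:63356162-63359511, plus strand, 6 exons), which lies between them and is not 1 of the 10 genes, had the largest fold change of the acute phase genes listed here. It ranged from 0.580 to 4.94 CPM with a median of 2.14 in the control mice and from 10.1 to 20.4 CPM with a median of 15.1 with BIBB-515, with no overlap. Orm3 rose by a log2 fold change of 2.77 (SE 0.32, FDR 7.30e-05), and each of its 6 exons was separate between the groups, with ratios between 5.88 and 7.19. The share of Orm2 among all orosomucoid counts was 0.982% ± 0.277 in the control mice (SD, n = 6) and 1.87% ± 0.338 with BIBB-515 (SD, n = 6), and that of Orm3 was 0.358% ± 0.208 and 2.19% ± 0.422. Because Orm1 dominates, the 3 genes summed had a log2 fold change of 0.17 (FDR 0.368). The counts are uncertain to the extent that 20.4% of the 50-base words of Orm1, 22.7% of those of Orm2 and 3.59% of those of Orm3 occur in transcripts of other genes.

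**Figure D2:**
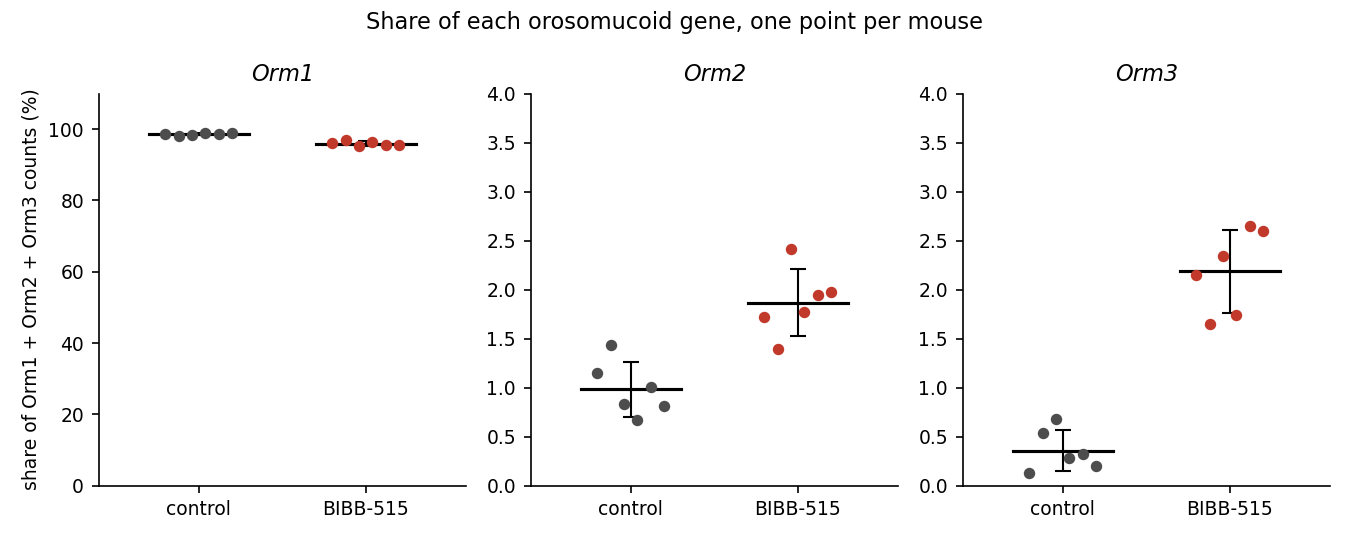
Share (y axis, percent) of Orm1, Orm2 and Orm3 in the counts of the 3 genes together, in each of the 6 control mice (gray) and 6 BIBB-515 mice (red). Lines are means and bars are SD, and the y axes differ between the genes. Orm1 took 98.7% in control mice and 95.95% with BIBB-515, and the Orm3 shares of the 2 groups did not overlap.

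The upstream sequences of Orm2 and Orm3 are 85.9% identical over their aligned 250 bases before the RefSeq start, and both hold the letters of a C/EBP site. They are shown because the 2 genes rose, with the match to TTGCNNAA in capitals, at position -120 in Orm2 and -121 in Orm3. For Orm2 all 250 bases are given (GRCm38.p6, chr4:63362199-63362448, plus strand), and for Orm3 the 161 bases that precede its longest transcript (chr4:63355908-63356068, plus strand).
Orm2: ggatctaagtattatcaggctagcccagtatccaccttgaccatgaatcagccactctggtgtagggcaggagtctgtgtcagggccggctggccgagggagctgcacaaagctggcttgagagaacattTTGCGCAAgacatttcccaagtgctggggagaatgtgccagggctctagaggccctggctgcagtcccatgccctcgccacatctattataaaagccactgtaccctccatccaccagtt
Orm3: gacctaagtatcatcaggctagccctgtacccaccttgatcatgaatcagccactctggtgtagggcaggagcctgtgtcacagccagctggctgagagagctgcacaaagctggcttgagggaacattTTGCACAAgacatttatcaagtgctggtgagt
The RefSeq table of upstream sequences held entries for 8 of the 10 genes, and Orm1 and Hp were not matched. In those 250 bases the C/EBP letters, on either strand, occurred in 7 of the 8 genes (all but Apcs), while 9.56% of all 32851 upstream sequences of this length held them. The upstream sequences of Saa1 and Saa2 are 94.8% identical, so these 2 of the 7 are close to 1 sequence. The matches in Lcn2 (position -216) and Saa1 (-182) lay outside the bases that precede the longest transcript, 0 and 49 of the 250. NF-kB letters (GGGNNTTNC) were found in none of the 8, against 13.0% of all. STAT letters were found in Apcs alone, against 7.02% of all, HNF1 letters (GTTAATNAT) in Alb alone, against 0.737%, and the core letters of the glucocorticoid receptor element (TGTTCT) in Apcs and Orm2, against 16.1%. None of these matches overlapped another. A match is a description of the letters and not of a bound site. Only these fixed letters in these 250 bases were searched, so the lack of a match does not mean that a site is absent.

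Haptoglobin and hemopexin, encoded by Hp and Hpx, bind free hemoglobin and free heme in plasma. Hp (chr8:109575128-109579172, minus strand, 5 exons) ranged from 1842 to 3191 CPM with a median of 2736 in the control mice and from 2358 to 3211 CPM with a median of 2548 with BIBB-515. The lowest value was that of control mouse 3, and the groups overlapped. The log2 fold change was -0.018 (SE 0.13, 95% confidence interval -0.29 to 0.26, FDR 0.947), and -0.098 (FDR 0.558) without control mouse 3. The 5 exons had ratios between 0.924 and 1.01.

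Hpx (chr7:105591611-105600116, minus strand, 10 exons) ranged from 3808 to 5275 CPM with a median of 4727 in the control mice and from 3507 to 4464 CPM with a median of 4032 with BIBB-515. All 6 BIBB-515 mice were below the control mean, but all except mouse 7 were above control mouse 3, which was again the lowest control. The log2 fold change was -0.22 (SE 0.09, 95% confidence interval -0.41 to -0.020, FDR 0.130), and without control mouse 3 it was -0.26 (FDR 0.0466). Without control mouse 4 it was -0.21 (FDR 0.172). The exact permutation test, unadjusted, gave p = 0.0325. The ratio of group means was highest in the first exon, 0.983, and lowest in the last, 0.827, and the groups overlapped in all 10 exons.

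Albumin, the main plasma protein and the classic negative acute phase protein, was the most abundant of the 10. Alb (chr5:90460889-90476603, plus strand, 15 exons) ranged from 114251 to 127370 CPM with a median of 118349 in the control mice, and from 81730 to 95915 CPM with a median of 92554 with BIBB-515. The highest BIBB-515 mouse was below the lowest control mouse. Alb fell by 0.40 on the log2 scale (SE 0.10, 95% confidence interval -0.60 to -0.20, FDR 0.0129), and by 0.41 (FDR 0.0251) without control mouse 4. It took 11.8% of all counts in the control mice and 9.26% with BIBB-515, and the 10 genes together took 12.6% ± 0.499 (SD, n = 6) and 10.0% ± 0.533 (SD, n = 6). The fold change of so abundant a gene depends on the scaling, and it was -0.35 (FDR 0.0102) with total counts alone. With no filter on low counts it was -0.39 with an FDR of 0.0591, which did not pass.

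The fall of Alb was looked at along the transcript after the values were seen. In the last 5 exons the summed levels were 81612 to 109010 CPM in the control mice and 62503 to 76645 CPM with BIBB-515, a difference in mean log2 CPM of -0.45. In the first 5 exons they were 26179 to 49132 and 30533 to 39579 CPM, a difference of -0.28, and the value below the BIBB-515 range was that of control mouse 4. Without this mouse, which was singled out by this same measure, the difference was -0.42. These 3 differences are a description with no test. The ratio of group means across the 15 exons lay between 0.714 and 0.885, below 1 in each. It was highest in exon 1 and lowest in exon 13. The groups did not overlap in 7 of the 15 exons, which were exons 8 to 14. The 250 bases upstream of Alb (GRCm38.p6, chr5:90460620-90460869, plus strand) are given with a match to the C/EBP letters at position -94, on the minus strand, and one to the HNF1 letters at position -32 in capitals. HNF1 is a liver factor known to drive albumin transcription.
Alb: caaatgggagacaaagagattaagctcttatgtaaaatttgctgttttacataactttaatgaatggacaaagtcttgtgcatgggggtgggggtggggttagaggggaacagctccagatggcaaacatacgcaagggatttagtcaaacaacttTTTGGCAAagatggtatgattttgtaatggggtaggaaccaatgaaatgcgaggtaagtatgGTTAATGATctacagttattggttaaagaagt

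Of the relatives of albumin beside it on chromosome 5, Afm, which encodes afamin, fell from 314 ± 34.0 to 254 ± 19.8 CPM (SD, n = 6 each), a log2 fold change of -0.31 (SE 0.08, FDR 0.0231). Its FDR lay just above 0.05 in 3 of the 12 fits that left out 1 mouse, between 0.0536 and 0.0543. Gc, which encodes the vitamin D binding protein, had a log2 fold change of -0.12 (FDR 0.337), and Afp, the fetal relative, one of -0.087 (FDR 0.809).

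**Figure D3:**
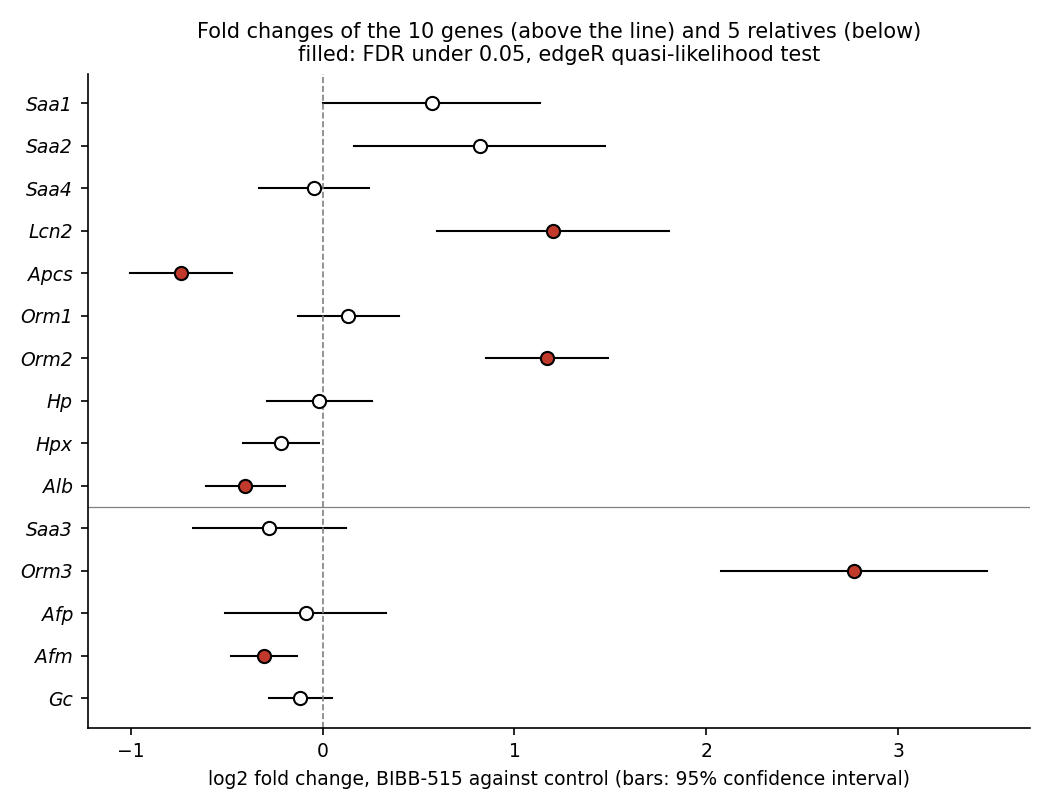
Log2 fold change (x axis, BIBB-515 against control, 6 mice each) of the 10 genes and of the 5 relatives Saa3, Orm3, Afp, Afm and Gc, with bars for the 95% confidence interval. Filled points passed an FDR of 0.05. Orm2, Lcn2 and Orm3 lie to the right and Apcs, Alb and Afm to the left.

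The levels of the genes were compared per length, as CPM per kilobase of exons. In the control mice Alb stood at 58734 ± 2934 CPM per kilobase (SD, n = 6), far above Hpx at 3164 ± 342, Hp at 2012 ± 369 and Orm1 at 798 ± 161. Apcs followed at 177 ± 37.6, then Saa4 at 75.7 ± 18.5, Saa1 at 64.5 ± 21.3, Saa2 at 32.9 ± 13.9, Lcn2 at 15.8 ± 7.24 and Orm2 at 7.56 ± 1.07. Saa4 and Saa1 did not differ beyond their spread in the control mice. With BIBB-515 the order was the same except that Saa1, at 95.8 ± 37.4, stood above Saa4, at 73.4 ± 6.61, again within their spread. Apcs, at 106 ± 8.42 CPM per kilobase with BIBB-515, was within the spread of Saa1.

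The coefficient of variation between control mice was 45.8% for Lcn2, 42.1% for Saa2 and 33.1% for Saa1. It lay between 14.1% for Orm2 and 24.5% for Saa4 in the next 5 genes, with Hp, Orm1 and Apcs between them, and was 10.8% for Hpx and 5.00% for Alb. BIBB-515 mouse 7 had the lowest value of its group for 8 of the 10 genes. Mice 8 and 11 each had the highest for 4, those of mouse 11 including Saa1, Saa2 and Lcn2. Within the BIBB-515 group Saa1 and Lcn2 had a Pearson r of 0.99 (exact permutation p = 0.00278) and a Spearman rho of 0.94 (exact permutation p = 0.0167) over 6 mice, and r was 0.98 without the 2 mice farthest from the median of Saa1. Saa1 and Saa2 had a Pearson r of 0.98 (exact permutation p = 0.00278) and a rho of 0.94 (exact permutation p = 0.0167) in the same mice. Other pairs were as close there by rank. Orm2 and Hp had a rho of 1.0 (exact permutation p = 0.00278), and Hpx and Lcn2 one of 0.94 (exact permutation p = 0.0167). Saa1 and Hp had a rho of 0.89 (exact permutation p = 0.0333). In the control mice Saa1 and Saa2 had an r of 0.99 (exact permutation p = 0.00694) and a rho of 0.83 (exact permutation p = 0.0583), and r was 0.76 without the 2 farthest mice. Saa1 and Lcn2 had an r of 0.77 there (exact permutation p = 0.0514) and a rho of 0.77 (exact permutation p = 0.103), but r was -0.28 without the 2 farthest mice, so that relation rests on control mice 2 and 4. None of the 90 relations computed, 45 pairs in each diet, passed a Benjamini-Hochberg adjustment, the lowest adjusted exact permutation p being 0.125. With 6 mice the smallest possible exact permutation p of a pair was 0.00139. A single pair could therefore not pass this adjustment over 90, however close the relation.

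**Figure D4:**
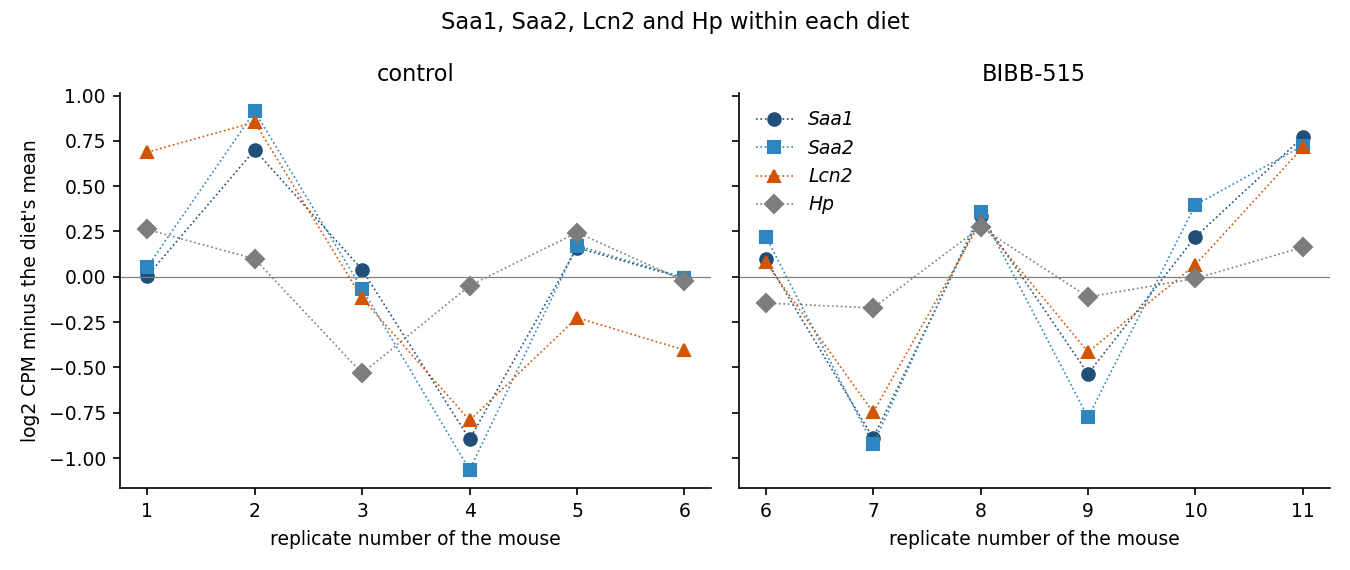
Log2 CPM of Saa1, Saa2, Lcn2 and Hp in each mouse minus the mean of its diet (y axis), by the replicate number of the mouse (x axis), for the control group (left) and the BIBB-515 group (right). The numbers name mice and have no order, and the dotted lines join the points of 1 gene. Saa1, Saa2 and Lcn2 are low together in BIBB-515 mice 7 and 9 and high in mouse 11. Hp varies less, and it is also lowest in mouse 7 and above its mean in mouse 11.

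Across the 12 mice, with each diet centered on its own mean, the genes outside the 10 whose log2 CPM varied most like Saa1 were Ipmk (Pearson r 0.90), Atf1 (0.89) and Serpina3m (0.86), the last of which encodes a protease inhibitor of the acute phase. Those most like Orm1 were Psmb7 (0.96), Tuba1b (0.93) and D17Wsu104e (0.93). Those most like Hp were Apol9a (0.94), Apol9b (0.93) and Cyb5 (0.93), and those most like Alb were Mycbp (0.85), Tab3 (0.83) and Smad6 (0.83). Without the 2 mice farthest from the median of the gene they were matched to, these values of r lay between 0.68 for Smad6 and 0.90 for D17Wsu104e, with 0.71 for Atf1 and 0.78 for Tuba1b. Tuba1b had an r with Orm1 of 0.99 in the control mice and of 0.38 in the BIBB-515 mice. The 12 genes were the highest of the 11456 tested genes with a mean log2 CPM of at least 1, the 10 genes themselves left out of the ranking. The mice share their libraries and depth across genes, and these values are a description.

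The other genes of the response were taken from lists of their known roles. Of 25 further positive acute phase genes, all 25 were tested, 2 rose, 7 fell and 16 did not pass, so that 36.0% passed where 13.7% of all tested genes did (7.18% higher and 6.48% lower). Without BIBB-515 mouse 7, 5 passed in place of 9. Their median log2 fold change was -0.21, against -0.014 for all tested genes. Orm3 rose, as above, and so did Cd14, the coreceptor for endotoxin, from 4.71 to 6.80 CPM (log2 fold change 0.53, FDR 0.0238). The genes that fell were Slc39a14, a zinc and iron importer (-0.47 on the log2 scale, FDR 0.000893), Itih3 and Itih4, inter-alpha-trypsin inhibitor heavy chains (-0.58 and -0.40, FDR 0.00131 and 0.0237), Steap4, a metalloreductase (-0.44, FDR 0.00263), Fgl1, a fibrinogen-like protein (-0.57, FDR 0.0156), Cp, ceruloplasmin (-0.28, FDR 0.0244), and Fgb, the fibrinogen beta chain (-0.33, FDR 0.0376). Fga and Fgg, the other fibrinogen chains, had log2 fold changes of -0.21 and -0.30 (FDR 0.223 and 0.0509), and Crp had one of -0.21 (FDR 0.128).

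Of 12 further negative acute phase genes, 3 fell, none rose and 9 did not pass. The share that fell was 25.0%, against 6.48% of all tested genes, and the median log2 fold change was -0.19, against -0.014. Ahsg, which encodes fetuin A, fell from 11873 ± 1718 to 7404 ± 623 CPM (SD, n = 6 each), a log2 fold change of -0.68 (SE 0.11, FDR 0.000873). Trf, which encodes transferrin, fell from 20432 ± 1925 to 13624 ± 1006 CPM (SD, n = 6 each), a log2 fold change of -0.58 (FDR 0.000898). Ttr, which encodes transthyretin, had a log2 fold change of -0.49 (FDR 0.00391). Apoa1 and Apoa2, the main proteins of high density lipoprotein, had log2 fold changes of -0.27 and 0.053 (FDR 0.128 and 0.759).

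Of 19 genes of interleukin 6 signaling, STAT3 and C/EBP, 17 were tested, 2 rose and none fell, with a median log2 fold change of -0.024. The share that passed, 11.8%, was near the 13.7% of all tested genes. Cebpb, a C/EBP factor of the response, rose from 48.1 ± 10.2 to 73.1 ± 15.1 CPM (SD, n = 6 each), a log2 fold change of 0.60 (SE 0.15, FDR 0.0180), with overlapping groups. Tyk2, a kinase of cytokine receptors, had a log2 fold change of 0.21 with an FDR of 0.0406, and its FDR lay above 0.05 in 8 of the 12 fits that left out 1 mouse and with no filter on low counts (0.0501). Socs3 and Stat3, respectively a feedback target of STAT3 and the factor itself, had log2 fold changes of -0.30 and -0.021 (FDR 0.178 and 0.906). Il6 and Socs1 did not reach the expression filter.

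Of 22 genes of interleukin 1, tumor necrosis factor and NF-kB signaling, 21 were tested, Il1rap, the accessory chain of the interleukin 1 receptor, fell from 131 ± 17.3 to 91.7 ± 3.34 CPM (SD, n = 6 each; log2 fold change -0.52, FDR 0.000674), and 20 did not pass, so that 4.76% passed, against 13.7% of all tested genes. The number that passed was 1 to 2 in the other settings and 1 to 3 with 1 mouse left out. Tnf did not reach the filter. The 10 tested genes of glucocorticoid action had a median log2 fold change of -0.12 and none passed edgeR's threshold, with 1 at an unadjusted p under 0.05, and DESeq2 gave 1. Tat, a classic target, was at 2097 ± 1016 and 1800 ± 544 CPM (SD, n = 6 each). Of 10 liver transcription factors 1 fell, Foxa3 (log2 fold change -0.68, FDR 0.0150), where 6.48% of all tested genes fell, and Hnf4a, the most abundant of them, had a log2 fold change of -0.15 (FDR 0.368). The receptors and scavengers that clear these proteins from plasma included Lrp1, which takes up hemopexin with its heme, at 803 ± 98.1 and 707 ± 64.3 CPM (SD, n = 6 each; FDR 0.203). None of the 10 tested of 11 such genes passed in edgeR, with 1 at an unadjusted p under 0.05, and DESeq2 gave 1.

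**Figure D5:**
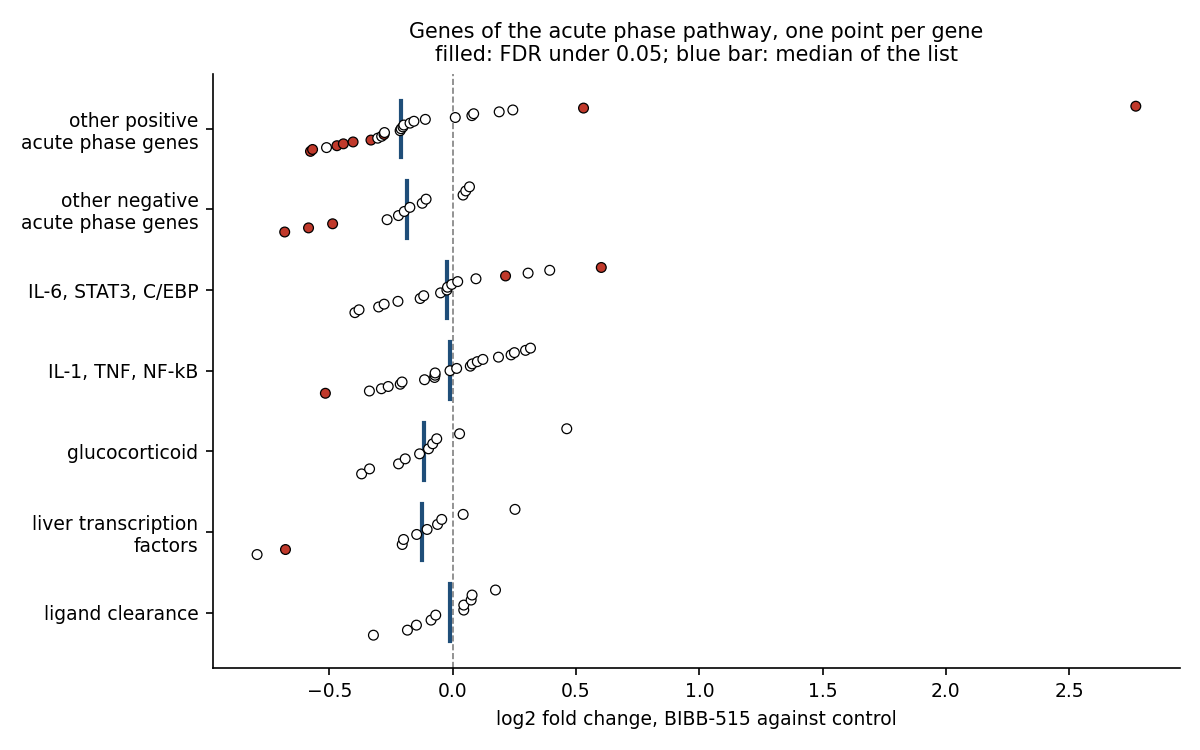
Log2 fold change (x axis, BIBB-515 against control) of each tested gene of 7 lists, with filled points for an FDR under 0.05 and a blue bar at the median of the list. The bar of the other positive acute phase genes lies at -0.21 and that of the interleukin 6 list at -0.024, and the point farthest to the right is Orm3.

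Markers of liver cell types were read in the same libraries. All 8 hepatocyte markers were expressed, with a summed level of 20942 to 25643 CPM in the control mice and 20081 to 21383 CPM with BIBB-515. Of these, 2 of 8 fell (25.0%, against 6.48% of all tested genes), Ttr and Serpina1e, an alpha-1-antitrypsin gene, the latter from 464 ± 339 to 44.1 ± 14.3 CPM (SD, n = 6 each; log2 fold change -3.39, FDR 0.000918, with overlapping groups). None of the 9 Kupffer cell markers passed in edgeR or DESeq2, and none had an unadjusted p under 0.05, while 1 passed in edgeR without BIBB-515 mouse 7. Their sum was 437 to 741 CPM in the control mice and 460 to 778 CPM with BIBB-515, led by Clec4f. The 6 endothelial markers summed to 186 to 254 and 169 to 230 CPM, led by Stab2, the 5 tested lymphocyte markers were led by Ptprc at 13.5 ± 1.70 and 11.3 ± 3.11 CPM (SD, n = 6 each), and the 3 tested monocyte markers by Lyz2 at 56.5 ± 13.3 and 53.5 ± 14.3 CPM (SD, n = 6 each). No gene of these 3 lists passed in edgeR or DESeq2 or had an unadjusted p under 0.05.

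Of 6 stellate cell markers, 2 fell (33.3%, against 6.48% of all tested genes), Lrat (log2 fold change -0.81, FDR 0.0202) and Dcn (-0.27, FDR 0.0398), the latter above an FDR of 0.05 in 8 of the 12 fits that left out 1 mouse, with upper-quartile scaling (FDR 0.0518), with total counts alone (0.105) and with no filter (0.0620). The sum of the 6 was 307 to 403 CPM in the control mice and 293 to 354 CPM with BIBB-515, led by Dcn. None of the 5 tested cholangiocyte markers passed in edgeR, with 1 at an unadjusted p under 0.05. Spp1, the most abundant, was at 82.5 ± 17.0 and 112 ± 22.4 CPM (SD, n = 6 each; log2 fold change 0.44, FDR 0.0663). It passed in DESeq2 (0.0324), with total counts alone (0.0429), without control mouse 6 (0.0399) and without BIBB-515 mouse 7 (0.0373). The cholangiocyte sum was 62.7 to 116 CPM in the control mice and 92.1 to 154 CPM with BIBB-515. Of the adipocyte markers 2 were tested and none passed in edgeR, with 1 at an unadjusted p under 0.05. Fabp4 was at 8.70 ± 1.82 and 9.24 ± 1.61 CPM (SD, n = 6 each). Cidec was at 7.15 ± 3.04 and 10.7 ± 3.66 CPM (SD, n = 6 each; log2 fold change 0.59, FDR 0.162). Lep had no counts. The 4 globin genes of the erythroid markers had no counts in any library, and Alas2 was at 12.4 ± 2.42 and 11.1 ± 1.84 CPM (SD, n = 6 each). The part of any of these cells in the values of the 10 genes was not tested.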

How the data were processed

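Liver RNA-seq libraries of 12 mice were analysed, 6 per diet. As deposited, each mouse has whole-number read counts for every gene and every exon. Per the file headers these counts were made with featureCounts 1.6.3 and a UCSC annotation of mm10, and the submitters' processing notes name STAR 2.5.3a as aligner. The gene counts set no strand and left out reads that align to several places or overlap several genes, so near-identical copies lose reads and overlapping or antisense genes cannot be separated. In the exon counts a read that spans exons is counted in each. Tables of counts per transcript were not used.

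The filter kept the 12481 of 24062 genes that reached 1 CPM in 2 or more of 12 samples. These were normalized by TMM and tested for diet by quasi-likelihood in edgeR 4.0.16 (R 4.3.3), with Benjamini-Hochberg adjustment over all tested genes. The scripts were tested on simulated data with the same spread for every gene and with changes larger than those of Alb or Hpx. Smaller changes, and genes as variable as Lcn2, were not checked in this way. The SE is the log2 fold change divided by the root of the F statistic. Single genes were also compared by a two-sided exact permutation test of mean log2(CPM + 0.5) over 924 labelings. The common biological coefficient of variation was 0.143. The most similar pair of libraries within a diet still had a chi-square of 12.7 per degree of freedom, far above sampling noise, and all 12 were kept as separate samples. The labels give no sequencing batch.

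The 10 genes and all lists were chosen with earlier results of these data known. Named are the 10 genes, Saa3, Orm3, Afp, Afm and Gc, up to 4 genes of each list past an FDR of 0.05 with the lowest p or else its 2 most abundant, and the 3 genes varying most like Saa1, Orm1, Hp and Alb. Beyond this rule, Cd14, Fgl1, Itih4, Cp, Fgb, Fga, Fgg, Crp, Apoa1, Apoa2, Socs3, Stat3 and Hnf4a were named after their values were seen. Adgre1 was read under its older symbol Emr1, and Ly6g was not analysed here. Promoter sequences are those of RefSeq (GRCm38.p6), and shared words were counted in GENCODE M21 transcripts. Alternatives were DESeq2 1.42.0, limma-voom (limma 3.58.1), upper-quartile scaling, total counts alone, scaling without the 10 genes and the 20 most counted genes, no filter, at least 1 CPM in 6 samples, the tables of primary alignments, summed paralogs, pseudocounts of 0.1 and 5, and each mouse left out in turn.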

Additional observations from a re-analysis of the deposited data

Results flagged for a closer look

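Dixon's test was applied to the 6 mice of each diet for 162 groups of values, those of each gene named by rule, each list sum, the total counts, the share of the 10 genes and the ratio of Saa1 to Saa2. It marked 2 of them, while chance alone marks about 5% of groups, or 8.1 here. Cidec, a lipid droplet gene among the adipocyte markers, was at 17.7 CPM in BIBB-515 mouse 7 and between 8.10 and 11.0 CPM in the other 5 mice of that diet. The summed level of Afp, Afm and Gc was 5750 CPM in BIBB-515 mouse 7 and between 6294 and 6598 CPM in the other 5. No value of the 10 genes was marked.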

How the results depend on the processing

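Orm2, Lcn2 and Apcs kept their direction and an FDR under 0.05 in all 20 alternatives run for each, with log2 fold changes of 1.09 to 1.27, 1.03 to 1.41 and -0.83 to -0.65. Alb kept its direction in all 20, between -0.42 and -0.35, and did not pass with no filter on low counts (-0.39, FDR 0.0591), so that 3 of the 10 genes passed there. Read from its first 5 exons alone, Alb had a difference in mean log2 CPM of -0.28 (exact permutation p = 0.0974). The number of genes past the threshold was 1705 and lay between 1489 and 2244 in the other settings and between 1199 and 1865 with 1 mouse left out. Total counts alone moved the median of all genes from -0.014 to 0.040, and there Hp (0.038), Saa4 (0.016), Atf1 (0.010) and Mycbp (0.025) had the opposite sign. With 1 mouse left out, log2 fold changes crossed 0 for Hp (-0.098 to 0.038), Saa4 (-0.12 to 0.080), Afp (-0.20 to 0.049), Apol9a (-0.038 to 0.28), Cd79b (-0.23 to 0.13), Clec4f (-0.017 to 0.11), D17Wsu104e (-0.014 to 0.068), Lyz2 (-0.17 to 0.048), Mycbp (-0.065 to 0.0088) and Tat (-0.36 to 0.067), none of which passed in any fit. The count for interleukin 6 signaling was 1 with no filter and 1 to 3 with 1 mouse left out. That for interleukin 1 and NF-kB signaling was 2 with DESeq2, upper-quartile scaling, total counts alone, limma-voom and primary alignments, and 1 to 3 with 1 mouse left out. Glucocorticoid genes gave 1 with DESeq2 and with total counts alone, and 0 to 1 with 1 mouse left out, and clearance genes 1 with DESeq2, upper-quartile scaling, total counts alone and primary alignments, and 0 to 1 with 1 mouse left out. With 1 mouse left out the further positive acute phase genes gave 5 to 10, the albumin relatives 0 to 1, and the summed paralogs 0 to 1, the 1 being Saa1 with Saa2 without control mouse 2 (FDR 0.0493). The cause of these changes was not tested. No paired analysis was possible because the groups share only replicate number 6. Depth limits the genes with few counts, among them Orm3, which had as few as 15 counts in a control mouse.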
